A study of Mus musculus with 2 samples.

Results

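The Six-family genes encode homeodomain transcription factors, and 5 of them, Six2, Six3, Six4, Six5 and Six6, were examined here in mouse neural progenitor cells. The regions described are the peaks of trimethylated lysine 4 of histone H3 (H3K4me3) that overlapped one of these genes or the 10 kb on either side of it, in the RefSeq annotation of mm10. The rule gave 6 of the 19265 peaks in the list, at 4 of the 5 genes. The mark was mapped by ChIP-seq, the sequencing of immunoprecipitated chromatin, in 1 H3K4me3 library, named "con" in its title and EGF-K4 in the header of the peak list, against 1 input library of chromatin that was not precipitated. The cells of both libraries are labelled as adult neural progenitor cells. They grew in N2 medium to which EGF and bFGF, both growth factors, were added, and the labels give no treatment. Which of the names describes the culture is not settled by the labels. The labels give no strain, genotype, age or number of animals, and no second culture, so the values carry no error between cultures.

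H3K4me3 lies over the starts of active genes and of genes held in a poised state, mostly at promoters rich in CpG dinucleotides. The proteins share a homeodomain that binds DNA and a SIX-type domain that binds partner proteins. EYA coactivators and DACH proteins work with them in the network first described for eye formation in Drosophila, and Six3 and Six6 also bind Groucho corepressors of the Tle family. In vertebrates Six3 acts in the early forebrain and eye, Six6 in the retina, hypothalamus and pituitary, Six2 in the progenitors of the kidney nephron, and Six4 in muscle. Six5 lies beside Dmpk, the gene of the myotonic dystrophy repeat in humans.

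The H3K4me3 library held 18156769 tags after filtering and the input 17831241. All 6 neural progenitor markers reported (Sox2, Nes, Hes1, Hes5, Fabp7 and Vim) had a peak within 10 kb (exact 95% interval 54.1% to 100%), as did 66.5% of all coding genes. Of the markers of other cells that a brain culture could hold, 1 of 4 for microglia (0.631% to 80.6%), 2 of 3 for endothelium (9.43% to 99.2%) and 2 of 4 for neurons (6.76% to 93.2%) did. Each of these intervals contains the share over all coding genes, so the counts do not tell the cell types apart. The peaks at Pecam1 and Kdr (endothelium) and at Syp (neuron) lay over the gene, and those at Aif1 (microglia) and Neurod2 (neuron) did not. Tags under peaks within 10 kb were 24 at Pecam1, 93 at Kdr and 114 at Syp. They were 848 at Aif1, 241 at Neurod2, and from 506 (Hes5) to 3217 (Sox2) at the neural progenitor markers. A peak is a mark at a gene and not a measure of its RNA, and the part of other cells in the peaks below was not tested.

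The promoter windows of 3 Six-family genes are shown because Six3 had the longest peak, Six2 the start peak of lowest fold enrichment and Six6 no peak. Each runs from 250 bases before to 50 bases after the RefSeq start, 5′ to 3′ on the strand of the gene, from RefSeq on GRCm38.p6, the assembly that mm10 names. All 5 genes matched the promoter table, with 6 windows, since Six4 has 2 starts. The Six3 window is chr17:85620584-85620883 on the plus strand, the Six2 window chr17:85688205-85688504 on the minus strand, and the Six6 window chr12:72939632-72939931 on the plus strand. Capitals mark matches, on either strand, to the CCAAT box (searched as CCAAT), the GC box (searched as GGGCGG), the TATA box (searched as TATAAA), the E-box (searched as CACGTG, which reads the same on both strands) and the core of the MEF3 site that Six-family proteins bind (searched as TCAGGTT).
Six3: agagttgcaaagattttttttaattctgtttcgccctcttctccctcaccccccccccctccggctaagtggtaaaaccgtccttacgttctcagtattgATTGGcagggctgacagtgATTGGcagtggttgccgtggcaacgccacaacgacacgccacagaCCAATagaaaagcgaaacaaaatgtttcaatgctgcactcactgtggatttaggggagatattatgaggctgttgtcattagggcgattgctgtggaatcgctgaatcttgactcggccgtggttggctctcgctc
Six2: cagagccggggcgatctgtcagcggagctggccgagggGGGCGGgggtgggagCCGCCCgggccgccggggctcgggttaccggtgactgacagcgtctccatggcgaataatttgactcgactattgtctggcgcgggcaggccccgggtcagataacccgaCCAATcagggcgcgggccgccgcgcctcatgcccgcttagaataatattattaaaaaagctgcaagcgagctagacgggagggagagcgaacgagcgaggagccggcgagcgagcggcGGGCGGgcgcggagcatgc
Six6: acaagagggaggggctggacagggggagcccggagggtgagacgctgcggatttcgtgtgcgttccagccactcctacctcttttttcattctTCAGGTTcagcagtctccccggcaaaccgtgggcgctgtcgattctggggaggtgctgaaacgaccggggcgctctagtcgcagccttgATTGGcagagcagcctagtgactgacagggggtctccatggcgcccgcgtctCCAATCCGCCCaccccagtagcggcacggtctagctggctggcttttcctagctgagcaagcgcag
In the Six6 window a CCAAT match and a reverse-strand GGGCGG match adjoin and so read as 1 run of capitals.

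Six3 and Six2 are neighbours on chromosome 17, with 36.5 kb between them, and were marked very differently. Six3 lay under a single peak of 12718 bp, chr17:85614120-85626837, with 2015 tags (exact Poisson 95% interval 1928 to 2105). Intervals on tags and on ratios of tag density cover counting error only, and those on shares of genes do not measure it. By length this peak ranked 10 of the 19265 in the list, and by tag count 18. Its fold enrichment, the authors' own ratio from peak calling against the input, was 45.57, above 83.9% of peaks. The Six3 peak thus stood out more in breadth than in height.

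The Six3 peak covered 95.9% of the annotated gene and ran 646 bp past its end. Its far edges lay 6714 bp before and 6003 bp after the RefSeq start, and its summit lay 1233 bp into the gene. At 7169 peaks that each held 1 start of any gene, the medians were 707 bp before, 1263 bp after and a summit at 217 bp. The Six3 peak also held the start of another gene, given below, so it is not of the kind that gave these medians. Among 1716 coding genes of 10068 to 15730 bp with a peak in the same window, the median share of the gene under peaks was 10.2%, and no other gene reached the share of Six3. The annotated Six3 interval begins 7.23 kb before the RefSeq start used here, and the part from that start to the gene end lay wholly under the peak. The same peak held the start of Six3os1, a long non-coding RNA gene on the opposite strand, 3671 bp from the summit. ChIP tags carry no transcript strand, so the mark cannot be divided between the 2 genes.

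Six2 had 2 weak peaks. The peak at its start, chr17:85687463-85689217, was 1755 bp long with 93 tags (75.1 to 114) and a fold enrichment of 13.74, above 30.6% of all peaks. Its summit lay 265 bp into the gene. The peak at the other end of the gene, chr17:85664342-85665479, was 1138 bp long with 63 tags (48.4 to 80.6) and a fold enrichment of 12.43. It lay inside Six2, with its summit 23190 bp from the start and 2328 bp from the annotated gene end, and held no annotated start. Both Six2 peaks thus fell in the lower part of the list by fold enrichment. The start of CJ186046Rik, a non-coding RNA gene on the opposite strand, also lay in the peak at the Six2 start. No peak was called in the 37.5 kb between the Six3 and Six2 peaks, a gap near the median of 40.5 kb between neighbouring peaks.

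**Figure D1:**
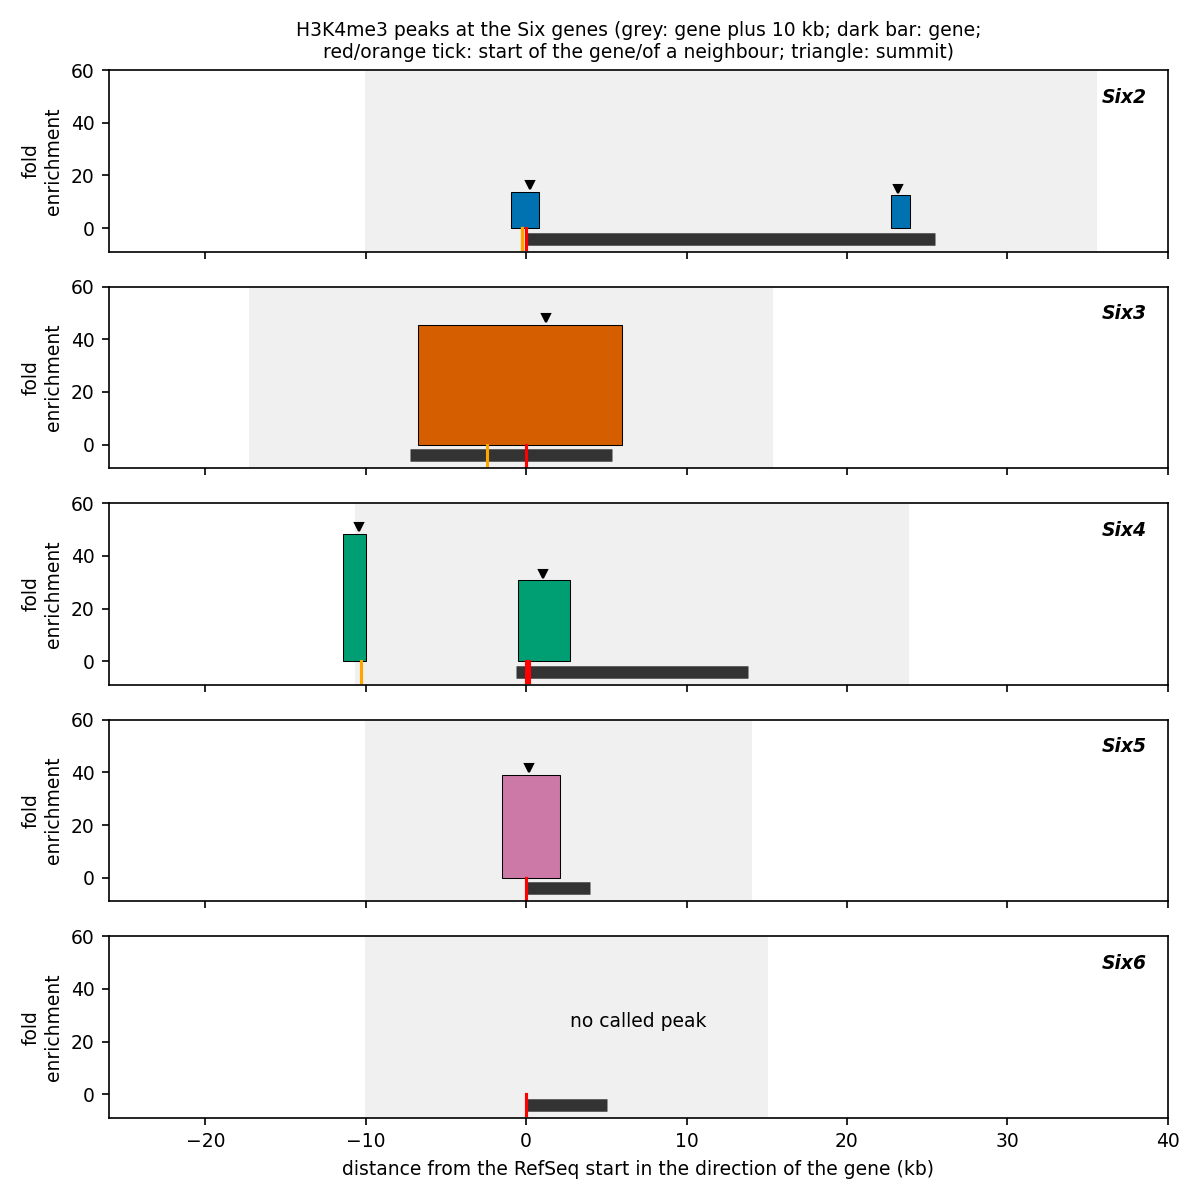
Each panel plots the peaks around 1 Six-family gene as boxes, with distance from the RefSeq start in kb on the x axis (for Six4, the outer of its 2 starts) and the authors' fold enrichment as box height. Grey marks the gene plus 10 kb, the dark bar the gene, red and orange ticks the starts of the gene and of neighbours, and triangles the summits; the Six3 box spans nearly the whole gene, the Six2 boxes stay at 13.74 and 12.43, and Six6 has no box.

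Six4, on chromosome 12, had a peak of 3209 bp at its start, chr12:73110708-73113916, with 645 tags (596 to 697) and a fold enrichment of 30.8. The peak held both RefSeq starts of Six4 and reached 491 bp before and 2717 bp after the outer of them. Its reach into the gene exceeded that of 94.1% of peaks with 1 start, while its reach before the start exceeded only 23.5%. Since it held both starts, these peaks are not of its kind. The peak lay wholly inside the annotated Six4 interval, which extends beyond the outer start. It held 201.0 tags per kb, above 96.1% of all peaks. The 5′ end of the annotated interval of Mnat1, which encodes an assembly factor of the CDK-activating kinase and lies on the opposite strand, is also under it. That end lay 221 bp from the summit, against 839 and 1019 bp for the Six4 starts, so the peak cannot be given to Six4 alone. The other peak in the Six4 window, chr12:73123414-73124815, began 9.38 kb from Six4 and had 232 tags (203 to 264) and a fold enrichment of 48.46. It held the Mnat1 start of the promoter table, 145 bp from its summit, and no Six4 start. The Six4 window therefore has the highest fold enrichment of the 5, but at the start of a neighbour.

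Six5, on chromosome 7, had 1 peak of 3613 bp, chr7:19093041-19096653, with 571 tags (525 to 620) and a fold enrichment of 39.06. Its summit lay 206 bp into the gene, close to the median of 217 bp, and it reached 1503 bp before and 2109 bp after the start. The Six5 peak covered 52.7% of the gene, against a median of 29.3% over 854 coding genes of 3205 to 5007 bp that had a peak in the window. It also overlapped the last bases of Dmpk, which encodes a protein kinase and runs towards Six5 on the same strand, but it did not hold the Dmpk start. Bhmg1, whose annotated interval overlaps the end of Six5 from the opposite strand, had no peak over it.

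Six6, on chromosome 12 at chr12:72939882-72944899, had no called peak over the gene or within 10 kb. The nearest peaks lay 118 kb and 99.0 kb away, and the stretch without a peak around it was 222 kb long, above 87.9% of the gaps between peaks. A site that did not pass the authors' p cutoff of 1e-05 is not listed, and the fewest tags in a listed peak were 13. A weaker mark at Six6 would therefore not appear in the list, and whether there is one was not measured.

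Just inside the 10 kb bound of the rule lay the Mnat1 peak, at 9.38 kb from Six4. Beyond that bound, the nearest peak to Six5 lay 16.9 kb away, with 367 tags and a fold enrichment of 43.4. Within 50 kb of Six2 and Six3 the only further peaks were those of the other gene of the pair.

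Tag density in the peak at the start was lower at Six2 than at the other marked members. The density was 158.4 tags per kb at Six3, 201.0 at Six4 and 158.0 at Six5, against 52.99 at Six2. The ratio to the Six2 density was 2.99 for Six3 (exact 95% interval 2.43 to 3.72), 3.79 for Six4 (3.05 to 4.77) and 2.98 for Six5 (2.39 to 3.75). Six5 and Six3 did not differ beyond counting error, with a ratio of 0.997 (0.907 to 1.10), whereas Six4 over Six3 gave 1.27 (1.16 to 1.39). The -log10 p of 310 given for the start peaks of Six3, Six4 and Six5 is shared by 3926 peaks (20.4% of the list), so it does not rank them. It was 36.7 for the Six2 start peak.

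**Figure D2:**
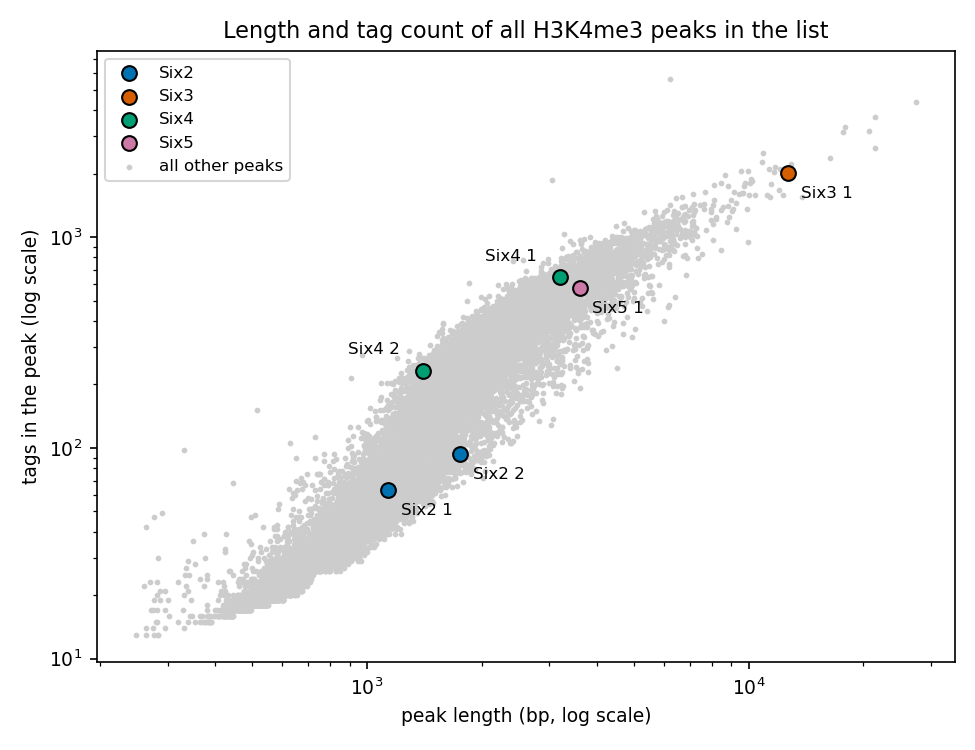
The plot sets the length of every peak in bp (x axis, log scale) against its tags (y axis, log scale), with grey points for all other peaks and labelled points for the 6 peaks at Six-family genes, numbered by position. The Six3 peak lies at the upper right with 2015 tags over 12718 bp, and the peak at the Six2 start lies low in the cloud for its length, with 93 tags over 1755 bp.

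The base composition of the promoters did not follow this order. Observed over expected CpG was 0.747 in the Six3 window, 0.713 and 0.640 in the Six4 windows and 0.559 in the Six5 window. It was 1.13 in the Six2 window, above 98.2% of 21263 coding promoter windows, and 0.689 in the Six6 window. Of the 6 Six-family windows 5 overlapped a peak, and the exception was that of Six6. The Six4 windows overlap each other and lie under the same peak, so they do not count separately. Of all coding promoter windows, 55.8% overlapped a peak. The share was 91.6% among coding windows with an observed over expected CpG of at least 0.6 and 23.2% among those below it.

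Six6 and Six2 differed most from promoters of like composition, taken as other windows within 0.05 in observed over expected CpG and within 2.5 percentage points in GC content. The Six6 window had no peak, while 466 of 524 windows like it (88.9%) did. The fold enrichment of 13.74 at the Six2 start stood against a median of 43.4 (quartiles 37.6 and 49.5) over the 97 of 98 like windows that had a peak, and 1 of these 97 lay below Six2. Six3 lay above 73.1% of the 145 marked windows like its own, and Six5 above 67.7% of 189. Six4 lay above 26.2% of 497 and 27.8% of 342 for its 2 starts. By tag density in place of fold enrichment, Six4 lay above 93.6% and 92.7% of the same windows, Six5 above 70.9%, Six3 above 51.7% and Six2 above 1.03%, so the place of Six4 depends on the measure. These percentiles describe 1 library and are not tests.

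**Figure D3:**
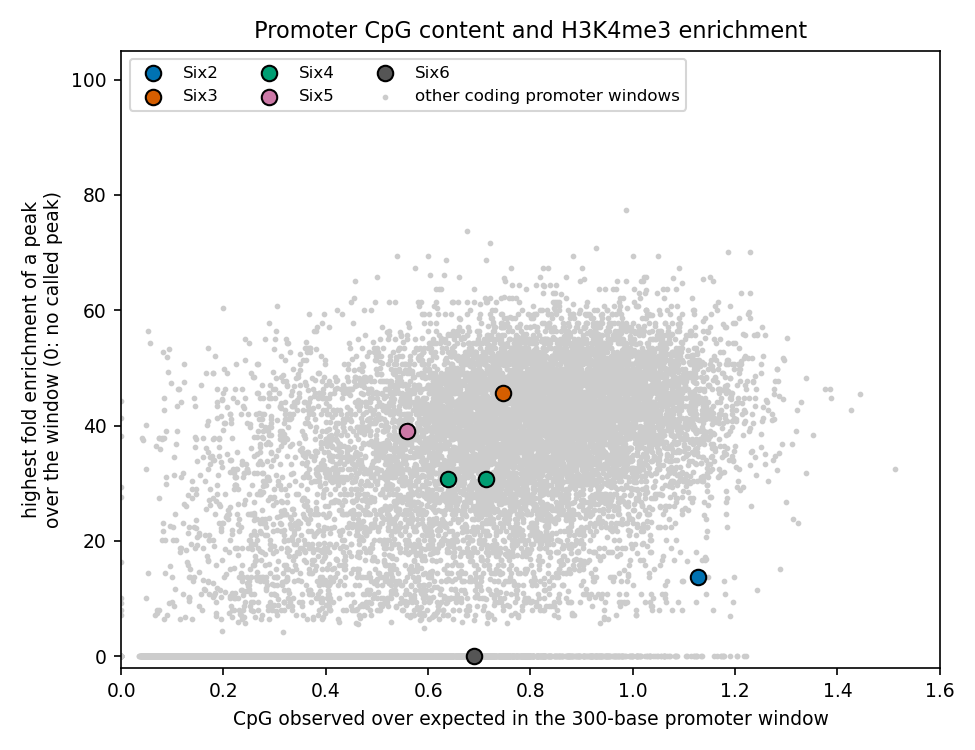
The plot sets observed over expected CpG in the 300-base promoter window (x axis) against the highest fold enrichment of a peak over that window (y axis, 0 where no peak was called), with grey points for other coding promoter windows and large points for the Six-family genes. Six2 lies at 1.13 on the x axis but at 13.74 on the y axis, below nearly all points beside it, and Six6 lies on the line of windows without a peak.

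The short motifs were counted as letters in these windows, with no statement on binding. CCAAT occurred 3 times in the Six3 window printed above, 2 times in the Six6 window, once in the Six2 window and once in 1 of the Six4 windows, and in 38.2% of all coding promoter windows. GGGCGG occurred 3 times in the Six2 window and 3 times in the Six5 window, once in each Six4 window and once in the Six6 window, and in 46.2% of all windows. The Six3 window held none. The GGGCGG match in the Six4 windows is the same site, since these windows overlap. TCAGGTT occurred in the Six6 window, 157 bases before the start, and on the reverse strand in 1 of the Six4 windows, and in 3.85% of all windows. No Six-family window held TATAAA (12.6% of all windows) or CACGTG (7.84%).

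Set against all genes, 4 of the 5 Six-family genes had a peak in the window (80.0%, exact 95% interval 28.4 to 99.5, over genes, which are not replicates), while 66.5% of 21887 coding genes did. Over the gene body the count was also 4 of 5, against 60.8%. Both background shares lie inside the interval, so the count of marked members is not a result about the family. Length under peaks in the window was 12718 bp at Six3, 3827 bp at Six4, 3613 bp at Six5 and 2893 bp at Six2, against a median of 2877 bp over marked coding genes. Among all 21887 coding genes, those without a peak included, Six3 lay above 99.6% by this measure and Six2 above 66.9%. As reference genes, Sox2, a stem cell factor, had 18413 bp in 4 peaks, and Gapdh, a glycolytic enzyme gene, had 5913 bp.

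Among the partners of Six-family proteins, 5 of the 6 EYA and DACH genes had a peak in the window (35.9% to 99.6%), against 66.5% of all coding genes. Eya1 had 519 tags under peaks with a fold enrichment of 33.99, Dach1 had 405 tags with 23.87 and Eya3 had 378 tags with at most 28.12. Eya4 and Dach2 had 65 and 72 tags, each with a fold enrichment of 10.85, and Eya2 had no peak. Thus the 2 weakly marked members were near the level of Six2. All 6 Groucho family genes had a peak (54.1% to 100%). Both intervals contain the share over all coding genes. The Groucho genes had a highest fold enrichment of 60.03 for Tle5, 45.95 for Tle3, 45.52 for Tle1, 40.5 for Tle4, 33.27 for Tle2 and 31.82 for Tle6. Tle2, Tle5 and Tle6 are neighbours on chromosome 10, and the 6 genes have 10 distinct peaks for 13 pairs of gene and peak.

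Of 12 other factors of the eye field and anterior forebrain 8 had a peak (66.7%), close to the 66.5% of all coding genes. The longest coverage was at Nr2e1, a nuclear receptor of neural stem cells, with 7077 bp, and at Lhx2, a LIM homeobox factor, with 5711 bp. Otx2 and Vax1, homeobox factors of the anterior brain, had none, like Six6. Six3 had more coverage than any of these 12 genes.

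Other homeobox families could not be told apart from the Six-family genes by their counts. A peak lay in the window of 4 of 9 Pax genes (44.4%, 13.7 to 78.8), 4 of 6 Dlx genes (66.7%, 22.3 to 95.7) and all 7 Meis and Pbx genes (100%, 59.0 to 100), with intervals that overlap that of the Six-family genes. Each of these intervals also contains the 66.5% of all coding genes that had a peak in the window. Median coverage over all members was 3613 bp for the Six-family genes, against 0 bp for Pax, 1246 bp for Dlx and 6306 bp for Meis and Pbx. Among the Pax genes Pax6 and Pax2 had the most, with 3352 and 2407 bp, and Pax1 and Pax4 had none. Pax6 also counts among the eye field and anterior forebrain factors above. Dlx1 and Dlx2, neighbours of the ventral forebrain, had 4203 and 3756 bp and share peaks. Dlx3 and Dlx4 had 1151 and 1342 bp and a fold enrichment of 12.3 each, and Dlx5 and Dlx6 had none. Meis2 and Meis1, homeodomain cofactors, had 13442 and 10896 bp. Only Meis2 of these 22 genes had more coverage than Six3, and it did so with 6 peaks, against 1 at Six3.

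**Figure D4:**
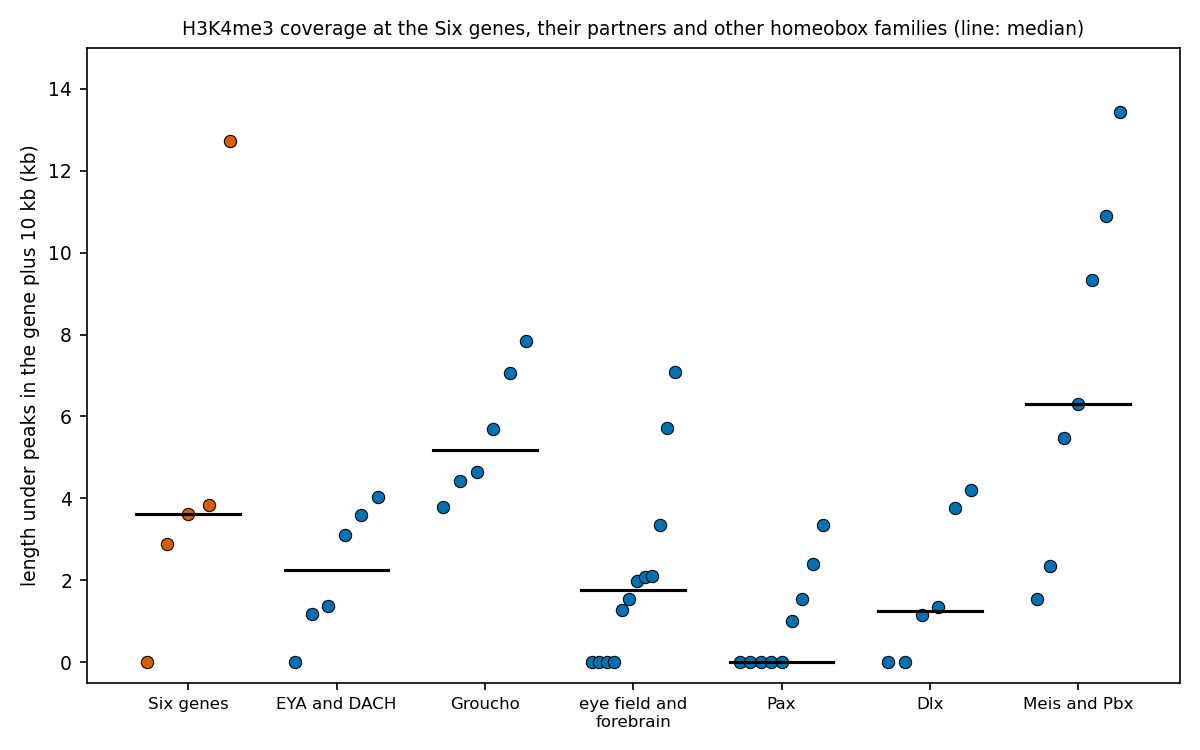
The plot gives, for each gene, the length under H3K4me3 peaks in the gene plus 10 kb (y axis, kb), with the Six-family genes in orange at the left and the partner and homeobox lists in blue. Lines are medians; Six3, at 12.7 kb, stands far above the other Six-family genes, and the lists overlap with the Six-family genes.

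The genes most like each Six-family gene were sought over the number of peaks, coverage, tags and highest fold enrichment in the window, as the distance in percentile points among 14563 marked coding genes of this 1 library. Six2 was nearest to Cxcl10 (2.20) and Cd248 (3.07), and Six4 to Dyrk1b (2.92) and Slc10a7 (3.35). Six5 had Cdca7 (3.71) among its 2 nearest. Six3 was nearest to Adrb1 (4.36), which has 1 peak with 7993 bp in the window, and to the predicted gene Gm46608 (5.61), with 12107 bp.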

How the data were processed

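Per the file headers, the authors called peaks with MACS 1.4.2 in 1 H3K4me3 library against 1 input (p cutoff 1e-05, band width 200 bp, tag size 25 bp, 1 tag kept per position). The submitters' processing notes name mm10 and MACS2 2.1.0; no aligner is named in the sources used here. The deposited file gives raw tag counts per peak, a score of 10 times the -log10 p, fold enrichment (a ratio given by peak calling against the input) and the percent false discovery rate. Keeping 1 tag per position limits counts in strong peaks.

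Peaks were joined to RefSeq genes and promoter windows of GRCm38.p6 (gene plus 10 kb, overlap of at least 1 bp) with Python 3.11.15, pandas 2.3.3 and scipy 1.17.1, and the overlap and joining steps were tested on simulated peaks. Chromosome 18 has no promoter windows in the table used. Intervals are exact (Poisson for tags, Clopper-Pearson for shares, conditional binomial for ratios). With 1 library there is no test. Members and lists were chosen with earlier results of these data known. Named genes are the members, their neighbours, all members of lists of up to 6 genes, the 2 with the longest coverage and the first 2 without a peak in longer lists, references, and the 2 nearest genes per marked member; not every gene the rule gives is reported here. Genes named outside this rule (Aif1, Neurod2 and markers) were chosen after their values were seen. Alternatives varied the window, the p and false discovery thresholds, the overlap, the joining gap and shared peaks.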

Additional observations from a re-analysis of the deposited data

How the results depend on the processing

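No paired analysis was possible because there is 1 library of each kind, and no replicate could be left out. The 4 of 5 Six-family genes with a peak stayed 4 with windows of the gene body, 5 kb and 20 kb, with a -log10 p of at least 10, a false discovery rate of at most 1% (every peak passes), an overlap of at least 500 bp and the summit in the window. Of all coding genes, 60.8% had a peak over the gene body, 64.1% with 5 kb and 70.1% with 20 kb. The p threshold gave 65.2%, the false discovery rate 66.5%, the overlap 66.3% and the summit 66.2%. All these shares lie inside the interval for 4 of 5 genes, 28.4% to 99.5%. The steady count is thus not a result about the family. The total length under peaks at the Six-family genes, 23051 bp, was 19321 bp over the gene body, 22433 bp with 5 kb and 26014 bp with 20 kb. The highest fold enrichment was 45.57 in place of 48.46 over the gene body and with 5 kb, since the Mnat1 peak drops out. With only peaks in the window of 1 coding gene, 2 of the Six-family genes (Six2 and Six3) and 7285 coding genes had a peak (33.3%), an alternative chosen for the Six-family genes after seeing the data. With the summit nearest to an end of the Six-family gene, 3 had a peak; Six3 dropped out because its summit lay 4124 bp from an end of the Six3 interval and 3671 bp from the Six3os1 start, although the Six3 RefSeq start, which this setting does not use, was at 1233 bp. Six4 kept only the Mnat1 peak. The share over all coding genes was not computed with this setting. The widest region, 12718 bp at Six3, was unmoved with peaks not joined or joined over 3 kb. The p cutoff of the list and the depth limit what can be said of Six6.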

Other observations

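Markers of other tissues in which Six-family genes act are given beside the 66.5% of all coding genes with a peak in the gene plus 10 kb. Of 6 nephron progenitor markers, a tissue of Six2, 5 had a peak there (exact 95% interval 35.9% to 99.6%) and 4 had one over the gene, Osr1 being the exception, with 8757 bp under peaks at Sall1 and none at Wt1. This list shares Pax2 with the Pax genes above. Of 5 skeletal muscle progenitor markers, a tissue of Six4, 1 had a peak (0.505% to 71.6%), which lay beside Pax3 and not over it. Pax3 and Pax7 of these markers are also among the Pax genes above. Of 6 retina and lens markers, the tissue of Six3 and Six6, 2 had a peak (4.33% to 77.7%), at Prox1 (4772 bp, fold enrichment at most 44.14) and at Nrl (1117 bp, 9.40). Each interval contains the share over all coding genes, so the counts do not tell these tissues apart.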
